A study of Drosophila melanogaster with 8 samples.

Results

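The Toll, Imd and JAK-STAT pathways carry immune signals from the surface of the fly cell to its nucleus. In the Toll pathway, secreted recognition proteins start a cascade of proteases that cuts the ligand Spätzle, which binds the receptor Toll and frees the NF-κB factors Dorsal and Dif from their inhibitor Cactus. In the Imd pathway, peptidoglycan recognition proteins (PGRPs) sense bacterial wall fragments and act through the adaptor Imd and the caspase Dredd on the NF-κB factor Relish. In the JAK-STAT pathway, cytokines of the Unpaired family bind the receptor Domeless and activate the factor Stat92E. Fat body, a secretory tissue that also lies in the head capsule, and circulating hemocytes make many of the secreted members.

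Transcripts of these pathways were measured in heads of wild-type Canton S Drosophila melanogaster females. The females were collected within 8 h of eclosion and kept for 12 days at 12.5 °C under 14 h of light and 10 h of darkness, so that both groups shared strain, age, temperature and light. Diapause females had arrested ovaries and non-diapause females did not. Each group had 4 arrays (diapause 1 to 4 and non-diapause 1 to 4). Nothing in the labels ties an array to its own culture of flies, and each p-value therefore rests on a spread among arrays that could be technical.

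The genes were taken from a list of 40 pathway genes, of which 31 had a probe set annotated to that gene alone, among 11982 genes so annotated. Where a gene had several such probe sets, the one with the highest mean over the 8 arrays was used. The other 9 genes, PGRP-SA, PGRP-SD, GNBP1, PGRP-LC, PGRP-LD, Tak1, upd3, hop and Socs36E, were not analysed here. All values are log2 expression values, all errors are SD over 4 arrays unless named otherwise, and each difference is the diapause mean less the non-diapause mean. A value of 2.16 is the floor of the scale and stands for no signal. Of the 31 genes, 29 gave signal and 2, Dif and upd2, differed from the floor by less than 0.01 on every array, so that their values had no order.

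Over the whole table, array medians lay between 2.74 and 2.92 and Pearson's r between arrays was 0.976 to 0.998. Of the 6 measured head markers, all gave signal, with gene means of 5.07 to 13.8. The array with the lowest median r to the others was non-diapause 3 (0.981), on which 143 probe sets lay at least 1 below every other array, against 0 to 10 on each of the others. On diapause 3, 43 probe sets lay at least 1 above every other array, against 3 to 19 elsewhere. The number of arrays limits the precision, and the median 95% interval of the 29 genes with signal reached 0.27 to either side.

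The first question was whether transcripts of the 3 pathways differ between heads of diapausing and non-diapausing females. Most differences were small. Of the 29 genes with signal, 13 were higher and 16 lower in diapause, 23 differed by less than 0.2 and 2 by at least 0.5, and the median difference was -0.03 (-0.02 over all 31 genes, and 0 over all tested probe sets). In limma with Benjamini-Hochberg adjustment over 18769 probe sets, 0 of 31 genes passed an adjusted p of 0.05, every member having an adjusted p of 1, and 0% of all probe sets passed. At unadjusted p under 0.05 there were 2 of 31 genes. Of these 1 was higher, dl, where 0.906% of all probe sets were higher at that level, and 1 was lower, PGRP-SB1, where 2.09% were lower. At unadjusted p under 0.01 there was 1, dl, where 0.767% of all probe sets reached that level. Diapause and non-diapause arrays did not overlap for 1 of the 31 genes, dl, which was higher, and 0.554% of all probe sets were separated in that direction. All such shares, here and below, include 6410 probe sets within 0.01 of the floor on every array, whereas 28 of the 31 genes averaged at least 5. Of the 8270 probe sets averaging at least 5, 148 were higher and 369 lower at unadjusted p under 0.05. In that set 137 reached unadjusted p under 0.01, and 92 were separated upward and 250 downward.

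**Figure D1:**
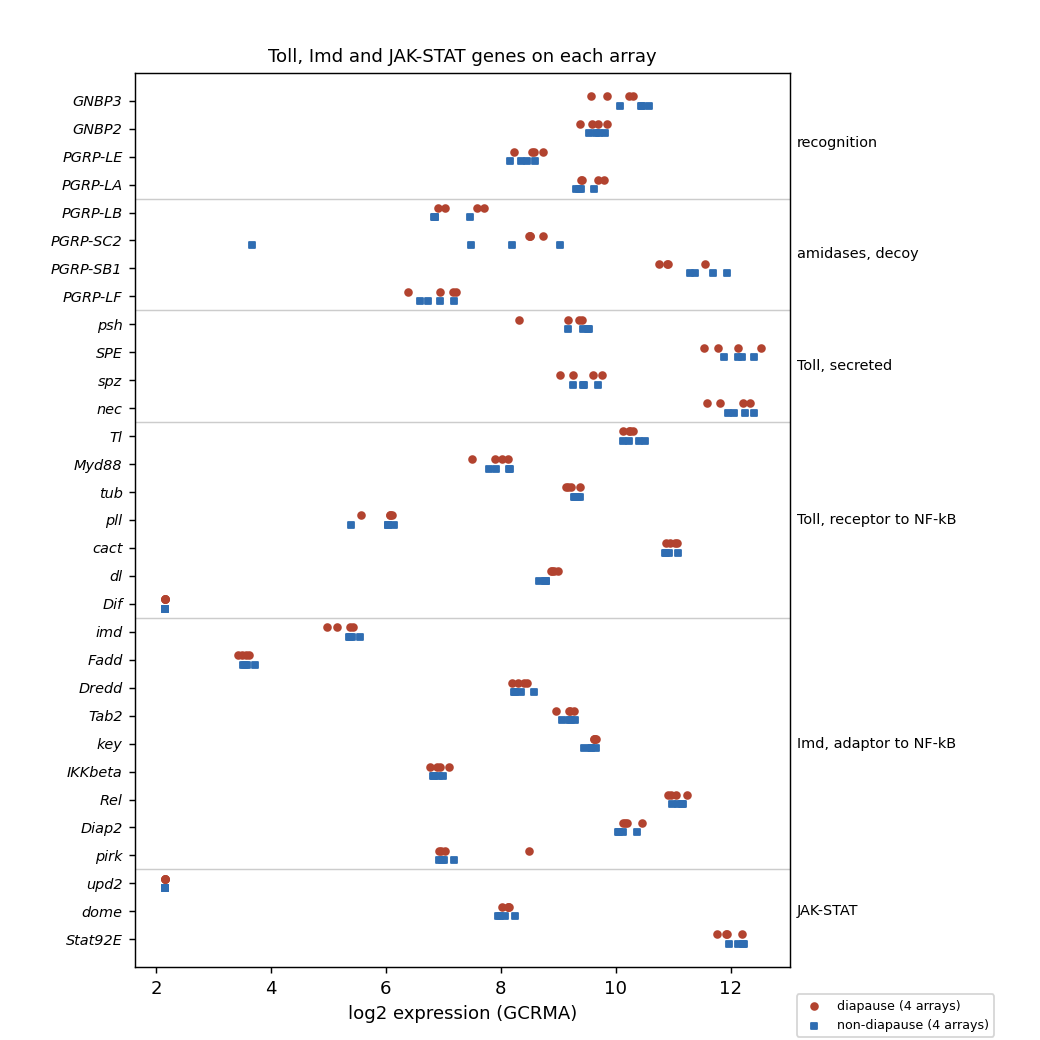
Log2 expression (horizontal axis) of the 31 measured genes on each array, ordered by role, with the 4 diapause arrays as red circles above the 4 non-diapause arrays as blue squares. The groups overlap for every gene with signal except dl, and PGRP-SC2 (non-diapause 3) and pirk (diapause 3) each have 1 array far from the rest.

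**Figure D2:**
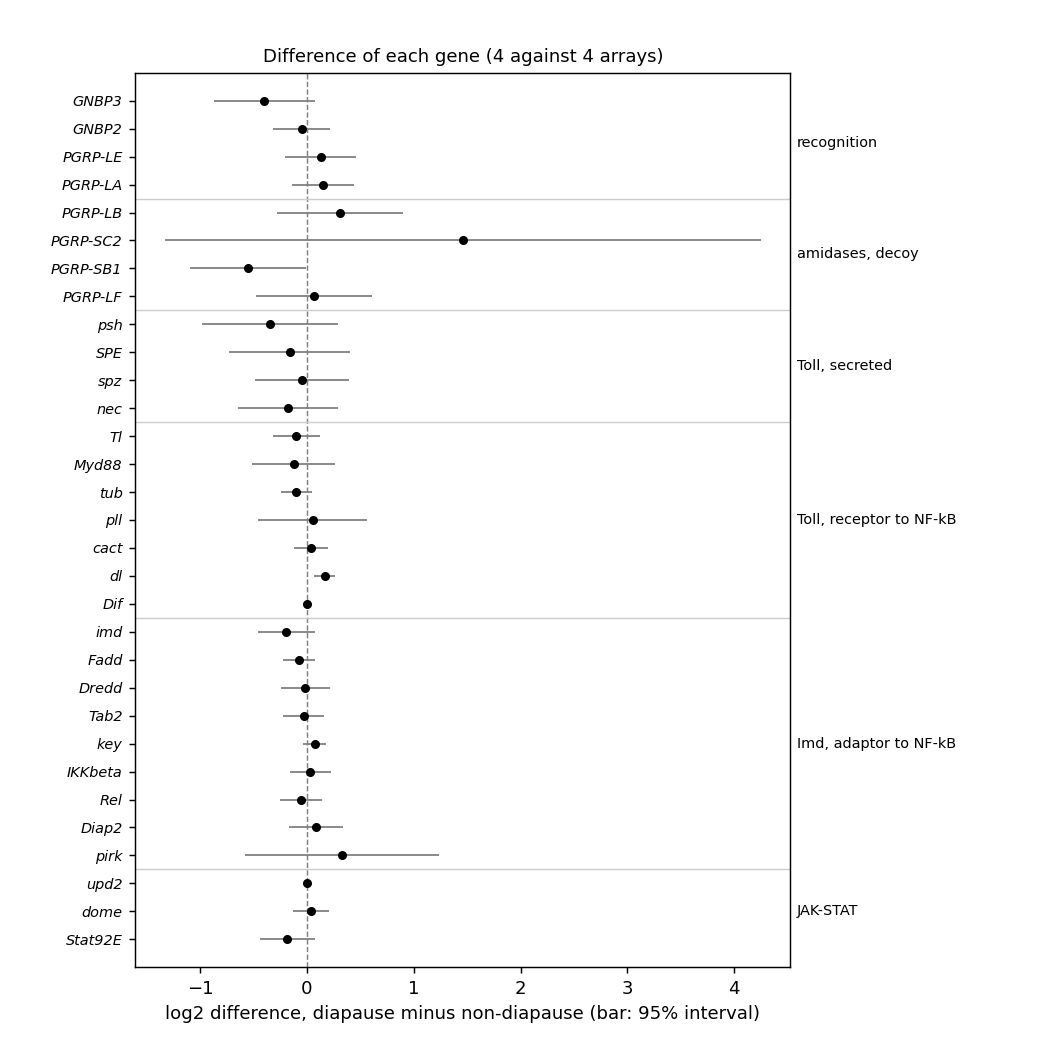
Log2 difference of each gene, diapause minus non-diapause (horizontal axis), with its 95% interval from limma over 4 arrays per group. The interval lies above 0 for dl and below 0 for PGRP-SB1, and it includes 0 for the other 29 genes.

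The gene dl encodes Dorsal, an NF-κB factor of the Toll pathway. It was 8.92, 8.89, 9.003 and 8.87 on diapause arrays 1 to 4, against 8.79, 8.78, 8.66 and 8.79 on non-diapause arrays 1 to 4. Every diapause array was thus above every non-diapause array, by a small margin. The group means were 8.92 ± 0.06 in diapause and 8.75 ± 0.06 in non-diapause heads, a difference of 0.17 ± 0.04 (SE; 95% interval 0.07 to 0.27; 1.12-fold; limma unadjusted p = 0.00614, adjusted p = 1). The exact permutation test over the 70 assignments of the arrays gave p = 0.0286 (2-sided), the smallest it can give. The second, less bright probe set of dl differed by 0.11, with overlapping groups (8.10 to 8.54 in diapause, 8.11 to 8.39 in non-diapause heads; unadjusted p = 0.359 in limma). Centring each array on its median, after which the median over all tested probe sets was -0.06, gave 0.11 for dl, and limma-trend with a robust prior gave unadjusted p = 0.128. Dif, the other Toll NF-κB gene and a near neighbour of dl with 2 genes between them, was at the floor of 2.16 on all arrays.

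For the rest of the chain from the receptor to NF-κB, the groups overlapped and every interval included 0. Cactus, which holds Dorsal in the cytoplasm, is encoded by cact, which was 11.06, 10.88, 11.03 and 10.94 on diapause arrays 1 to 4, against 10.92, 11.09, 10.86 and 10.88 on non-diapause arrays 1 to 4. The groups overlapped almost fully, and the difference of 0.04 had an interval of -0.12 to 0.19. A second probe set of cact differed by 0.34 (unadjusted p = 0.152 in limma), so its 2 probe sets did not give the same size. The receptor gene Tl differed by -0.10 (interval -0.32 to 0.12) and the adaptor gene tub by -0.10 (interval -0.24 to 0.05). The intervals were wider for the adaptor gene Myd88, at -0.12 (-0.51 to 0.27), and the kinase gene pll, at 0.05 (-0.45 to 0.56). A further probe set of Tl lay at or near the floor (2.16 to 2.52).

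The secreted genes of the Toll pathway and GNBP2 overlapped between the groups, with means over 6 genes of 9.90 to 10.69 on the diapause arrays and 10.31 to 10.72 on the non-diapause arrays, and their spread between the arrays of a group was wide (median within-group SD 0.28, against 0.15 for the other members and 0.18 for all probe sets averaging at least 5). The members with signal here were GNBP3, a sensor of fungal glucans, psh, a protease that senses foreign proteases, SPE, the enzyme that cuts Spätzle, spz, the ligand itself, and nec, a serpin that restrains psh. GNBP2, a relative of GNBP3, was grouped with them. All 6 differences were below 0 (median -0.17), from -0.40 for GNBP3 (interval -0.86 to 0.07, limma unadjusted p = 0.0845) and -0.34 for psh to -0.05 for spz and GNBP2, and 0 of the 6 reached unadjusted p under 0.05.

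GNBP3 was 10.23, 9.58, 10.29 and 9.85 on diapause arrays 1 to 4, against 10.57, 10.45, 10.08 and 10.43 on non-diapause arrays 1 to 4. SPE was 12.13, 11.53, 12.52 and 11.77 on the diapause arrays and 12.19, 12.40, 11.88 and 12.13 on the non-diapause arrays. nec was 12.22, 11.59, 12.33 and 11.82 on the diapause arrays and 12.25, 12.40, 11.96 and 12.05 on the non-diapause arrays. In each of these genes diapause 2 was the lowest diapause array and non-diapause 3 the lowest non-diapause array, and the groups overlapped. psh had the deepest low point, at 8.32 on diapause 2 against 9.16 to 9.42 on the other diapause arrays and 9.17 to 9.54 on the non-diapause arrays. The ligand gene spz was 9.60, 9.03, 9.75 and 9.26 on diapause arrays 1 to 4, against 9.45, 9.70, 9.26 and 9.43 on non-diapause arrays 1 to 4.

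All 6 genes had their lowest value on diapause 2 and on non-diapause 3 within their groups. The same was so for 8 of the 22 other members with a mean of at least 5, and for 21.9% of all 8270 probe sets of that brightness. Without both arrays, an alternative chosen after the data were seen, the 6 differences ran from -0.36 (GNBP3) to 0.01 (spz), with 5 below 0 and a median of -0.11. Without diapause 2 alone, 4 were below 0, the median was -0.03, and SPE, psh and nec stood at -0.01, -0.09 and -0.04. Without non-diapause 3 alone, all 6 were below 0, and SPE, psh and nec stood at -0.25, -0.42 and -0.24. Without diapause 3 alone, these 3 genes stood at -0.34, -0.46 and -0.29. With centring of the arrays, all 6 were below 0. Without both diapause 2 and non-diapause 3, SPE stood at -0.10, psh at -0.17 and nec at -0.11, against -0.16, -0.34 and -0.18 with all arrays. GNBP3 was -0.26 without diapause 2, and -0.50 without non-diapause 3 or without diapause 3. In 4 alternatives its limma unadjusted p was under 0.05. These were centring (0.0259), array weights (0.0272), and leaving out diapause 3 (0.0488) or non-diapause 3 (0.0490). In the others it reached 0.181, and the smallest adjusted p was 0.340.

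Most markers of hemocytes moved with the secreted genes across arrays. Of the 13 hemocyte markers measured, 12 had a mean of at least 5 and 1, He, lay near the floor (2.18 to 2.28), and 9 of the 12 were lowest on both diapause 2 and non-diapause 3. Within their groups, crq and lz were instead lowest on diapause 4 and non-diapause 1. Pxn was 9.40 on both diapause 2 and diapause 4. Pxn and crq differed between the groups by 0.01 and 0.11. The mean of 4 plasmatocyte genes, Hml, NimC1, eater and Sr-CI, was 6.35 on diapause 2 and 7.50 to 8.14 on the other diapause arrays, and 7.08 on non-diapause 3, where its 3 companion arrays had 7.87 to 8.26. The mean of the 12 markers ranged from 8.42 to 9.32 in diapause and from 8.87 to 9.45 in non-diapause heads. PPO1 and PPO2, prophenoloxidase genes of crystal cells, did not overlap between groups, with differences of -0.94 and -0.70 (limma unadjusted p = 0.0215 and 0.0265, adjusted p = 1), where 1.44% of all probe sets were separated in this direction. Another hemocyte marker, lz, went the other way, with a difference of 0.19 (limma unadjusted p = 0.168) and overlapping groups. Its highest value was on diapause 2 (7.21), where PPO1 and PPO2 were lowest. Over all 13 markers, 9 differences were below 0 and 4 above. The part of hemocytes in the levels of the secreted Toll genes was not tested, and in whole heads fewer cells of a type cannot be told apart from less RNA per cell.

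**Figure D3:**
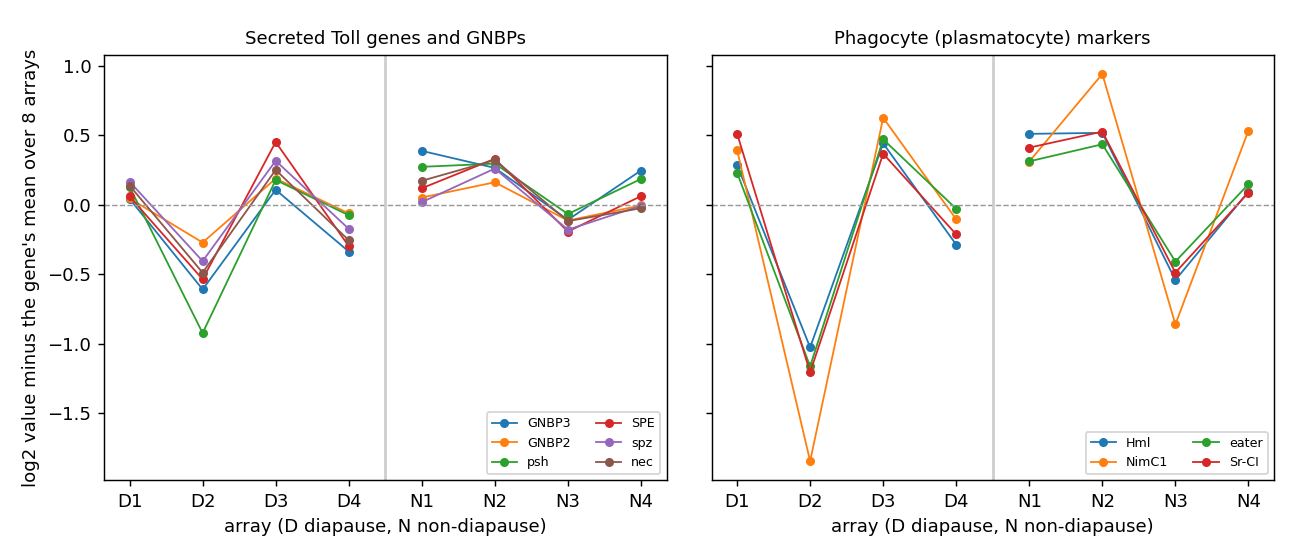
Log2 value of each gene minus its mean over the 8 arrays (vertical axis), by array, with diapause arrays (D1 to D4) left of non-diapause arrays (N1 to N4); lines join arrays of a group only to show which points belong to a gene. The 6 secreted Toll genes and GNBPs (left) and 4 plasmatocyte genes taken from the 13 hemocyte markers (right) are lowest on D2. Among the non-diapause arrays they are lowest on N3. The other hemocyte markers, Pxn and crq among them, are not drawn.

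In the Imd pathway, sensing by PGRPs is balanced by PGRP amidases, which cut peptidoglycan into fragments that no longer signal. PGRP-LE, an intracellular receptor, differed by 0.13 (interval -0.20 to 0.46) and PGRP-LA, another long PGRP, by 0.15 (interval -0.14 to 0.44). PGRP-LF, a membrane decoy that blocks receptor signalling, differed by 0.07. Among the amidases, 1 was lower in diapause by the unadjusted test, and the intervals of the other 2 included 0.

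PGRP-SB1, a secreted amidase, was 11.55, 10.89, 10.75 and 10.91 on diapause arrays 1 to 4, against 11.93, 11.29, 11.39 and 11.70 on non-diapause arrays 1 to 4. The groups overlapped through diapause 1, and the other 3 diapause arrays were below all non-diapause arrays. The means were 11.03 ± 0.36 in diapause and 11.58 ± 0.29 in non-diapause heads, a difference of -0.55 ± 0.23 (SE; 95% interval -1.10 to -0.01; 1.46-fold; limma unadjusted p = 0.0481, adjusted p = 1). The exact permutation test gave p = 0.0857 (2-sided). The difference stayed below 0 when each array was left out in turn, at -0.73 without diapause 1 and -0.43 without non-diapause 1, and limma unadjusted p over these 8 settings was 0.00751 to 0.115.

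Markers of fat body were lower in diapause beside PGRP-SB1. Of 9 such markers, Fbp1 and Fbp2 lay near the floor and the other 7, yolk protein, larval serum protein and lipoprotein genes among them, were all lower (median over the 9, -0.26), 6 at unadjusted p under 0.05, where 2.09% of all probe sets were lower at that level, and 0 at an adjusted p under 0.05 (smallest adjusted p = 0.510 in limma). Their mean ranged from 14.17 to 14.42 on the diapause arrays and from 14.48 to 14.81 on the non-diapause arrays. The paper lists yolk protein genes 2 and 3 among the genes of its diapause experiment, whose arrays are those used here. The result for Yp2 and Yp3 is therefore not a separate observation. Among the diapause arrays, PGRP-SB1 was highest on diapause 1 (11.55) and the mean of the 7 markers on diapause 3 (14.42). The part of fat body in the level of PGRP-SB1 was not tested.

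PGRP-SC2, an amidase known from the gut, was 8.50, 8.48, 8.73 and 8.51 on diapause arrays 1 to 4, against 8.20, 9.03, 3.68 and 7.48 on non-diapause arrays 1 to 4. The diapause arrays were alike, and non-diapause 3 was far below all others. The difference of 1.46 had an interval of -1.33 to 4.25 (limma unadjusted p = 0.250), and it was 0.32 without non-diapause 3 (unadjusted p = 0.423). The mean of digestive tract markers was low on non-diapause 3 too. Of 23 measured, 15 trypsin, Jonah protease and related genes had a mean of at least 5. Their mean was 2.82 on non-diapause 3, against 9.60 to 11.22 in diapause and 9.80 to 11.25 in the remaining non-diapause arrays. Among the diapause arrays, this mean varied by more than PGRP-SC2 did. Not every marker singled out non-diapause 3. The marker zetaTry was also at 2.22 to 2.30 on diapause 2 and non-diapause 1 and 4, and thetaTry was lowest on non-diapause 4. Digestive tissue as a source of the PGRP-SC2 signal was not tested.

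PGRP-LB, an amidase that limits Imd signalling, was 6.91, 7.03, 7.59 and 7.71 on diapause arrays 1 to 4, against 6.84, 7.46, 6.85 and 6.85 on non-diapause arrays 1 to 4. High values were found in both groups, on diapause 3 and 4 and on non-diapause 2. The difference of 0.31 had an interval of -0.28 to 0.90. Without non-diapause 2 it was 0.46 and without diapause 4 it was 0.18, so single arrays set its size.

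**Figure D4:**
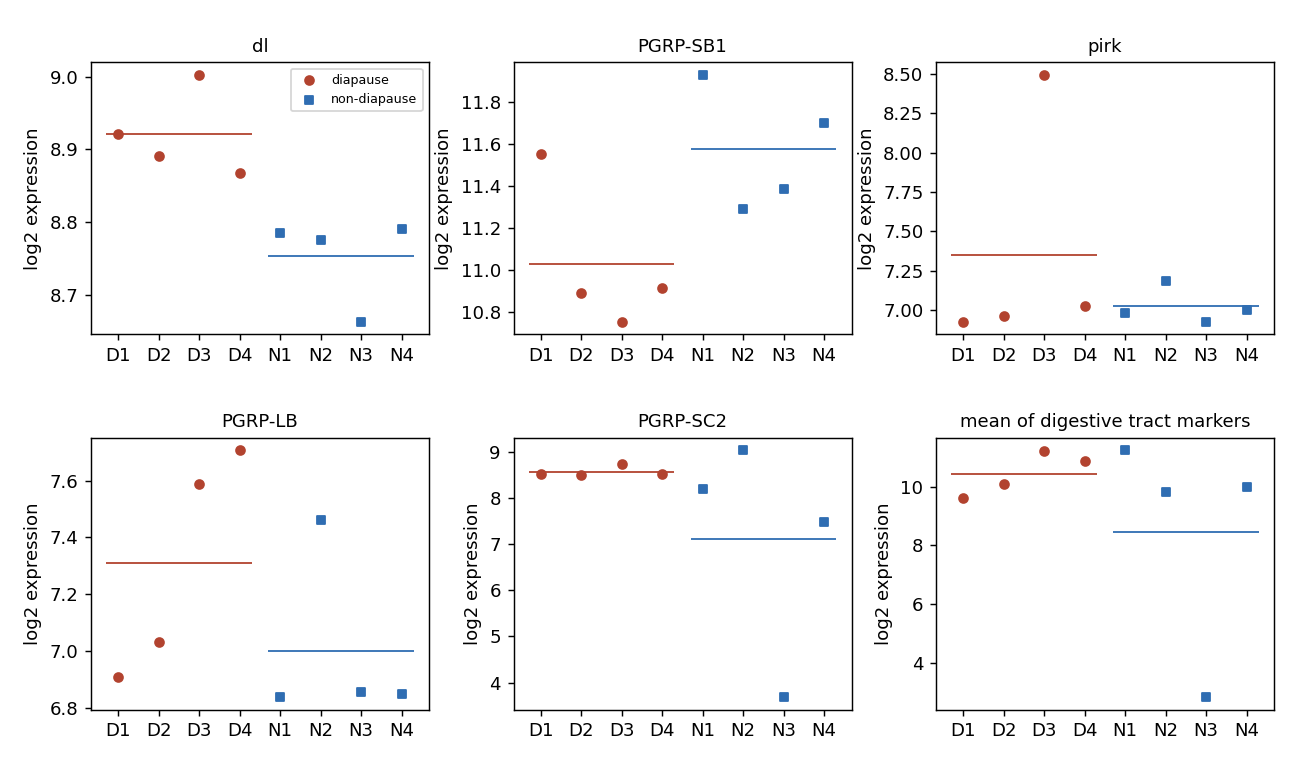
Log2 expression (vertical axis, not starting at 0) by array for dl, PGRP-SB1, pirk, PGRP-LB, PGRP-SC2 and the mean of 15 digestive tract markers; red circles are diapause arrays, blue squares non-diapause arrays, and lines the group means. The diapause arrays of dl all lie above the non-diapause arrays, pirk is high on D3 alone (8.49), and PGRP-SC2 and the mean of the digestive tract markers are both low on N3.

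In the Imd core, from the adaptor to Relish, every interval included 0. Rel encodes Relish, and it was 11.24, 10.91, 11.05 and 10.97 on diapause arrays 1 to 4, against 11.17, 11.15, 10.98 and 11.08 on non-diapause arrays 1 to 4. The ranges overlapped, and the difference was -0.05 (interval -0.25 to 0.14). The IκB kinase genes IKKbeta (0.03) and key (0.07), the caspase gene Dredd (-0.02), the kinase adaptor gene Tab2 (-0.03) and the ubiquitin ligase gene Diap2 (0.09) had intervals between -0.25 and 0.34. The adaptor gene imd differed by -0.19 (interval -0.46 to 0.07), with limma unadjusted p = 0.129 as deposited and 0.0419 after centring the arrays, and Fadd, which links Imd to Dredd, was dim (3.52 in diapause heads, 3.59 in non-diapause heads). With the deposited values, 0 of these 8 genes reached unadjusted p under 0.05.

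pirk, whose product holds back the Imd receptors, stood out on 1 array. It was 6.93, 6.96, 8.49 and 7.03 on diapause arrays 1 to 4, against 6.98, 7.19, 6.92 and 7.003 on non-diapause arrays 1 to 4. The other 7 arrays lay within 6.92 and 7.19, so that the difference of 0.33 (interval -0.58 to 1.24) was made by diapause 3 and was -0.05 without it. Among the companion genes of the pathway, dnr1, an inhibitor of Dredd, was also highest on diapause 3 (10.31, against 9.42 to 9.59 on the other diapause arrays and 9.40 to 9.61 on the non-diapause arrays). dnr1 was singled out after its values were seen.

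Of the JAK-STAT pathway, 2 genes gave signal. Stat92E, the transcription factor, was 11.75, 11.94, 12.20 and 11.92 on diapause arrays 1 to 4, against 12.23, 11.96, 12.21 and 12.13 on non-diapause arrays 1 to 4. The groups overlapped, as diapause 3 lay among the non-diapause arrays, and the difference was -0.18 (interval -0.44 to 0.08, limma unadjusted p = 0.136). Without diapause 3 it was -0.26 with unadjusted p = 0.0246 and adjusted p = 1. The receptor gene dome was 8.03 to 8.14 in diapause and 7.95 to 8.25 in non-diapause heads, with a difference of 0.04 (interval -0.13 to 0.21). The cytokine gene upd2 was at the floor on all 8 arrays.

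Further genes of the 3 pathways, listed beside these members, were counted in the same way, where 0.906% of all probe sets were higher and 2.09% lower at unadjusted p under 0.05. Of 19 other Toll genes, 0 were higher and 2 lower at unadjusted p under 0.05 (median 0.02). These were 18w, a relative of Toll (-0.12, with groups that did not overlap, as for 1.44% of all probe sets in this direction), and Hrs, an endosomal sorting gene that aids Toll signalling (-0.15). Of 22 other Imd genes, 1 was higher and 0 lower (median 0.04), and that was nub, a POU factor that represses immune genes in the gut, with 5.64 ± 0.65 in diapause and 3.68 ± 0.44 in non-diapause heads (1.96, limma unadjusted p = 0.00185, adjusted p = 0.907). The JNK phosphatase gene puc followed with 0.15. Of 16 other JAK-STAT genes, 1 was higher and 0 lower (median 0.01), and that was Ptp61F, a phosphatase that dampens the pathway, with 8.65 ± 0.12 and 8.41 ± 0.08 (0.24, limma unadjusted p = 0.0158, adjusted p = 1). Only the brightest of 3 probe sets of nub and of 2 of Ptp61F is given, and nub was dim in non-diapause heads (3.12 to 4.15). In these 3 lists together 0 genes passed an adjusted p of 0.05.

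Target genes of the pathways were examined next. Of 17 measured genes listed as Toll and Imd targets, most of them antimicrobial or Bomanin peptide genes, 10 had a mean of at least 5. The median difference over the 17 was -0.00. At unadjusted p under 0.05, 0 were higher and 1 was lower, where 0.906% and 2.09% of all probe sets were higher and lower. The lower one was IM33, listed with the peptide genes, with means of 14.63 ± 0.08 (diapause) and 14.76 ± 0.02 (non-diapause; difference -0.13), near the top of the scale. Other listed targets had no probe set annotated to that gene alone and were not analysed. Among them were DptA, AttA, AttB, AttC, CecA1, CecA2, CecC, Dro, BomS1 and BomS3. The peptide genes that varied most did so within groups. DptB, a Diptericin and target of Relish, was 9.22, 9.08, 6.32 and 5.55 on diapause arrays 1 to 4, against 6.95, 5.45, 6.42 and 7.66 on non-diapause arrays 1 to 4. Mtk, which encodes Metchnikowin, was 12.05, 12.46, 10.17 and 8.79 on the diapause arrays and 9.21, 10.10, 11.14 and 11.01 on the non-diapause arrays. Both genes were higher on diapause 1 and 2 than on the other 6 arrays, while on these 2 arrays Rel was 11.24 and 10.91 and pirk 6.93 and 6.96. Drs, which encodes Drosomycin, a target of Toll, was 11.47 to 13.52 in diapause and 11.88 to 12.95 in non-diapause heads, with its highest value on diapause 2, where the secreted Toll genes were lowest.

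Of 9 measured outputs of JAK-STAT signalling, 6 had a mean of at least 5 and 0 reached unadjusted p under 0.05 (median 0.01 over the 9). Other listed outputs, TotA, TotM, Tep1 and Tep2 among them, had no probe set annotated to that gene alone. The largest difference was that of Diedel, an immune-modulating secreted protein, with 5.18, 8.73, 7.28 and 6.09 on diapause arrays 1 to 4, against 5.35, 6.52, 4.52 and 4.81 on non-diapause arrays 1 to 4. Its groups overlapped and its interval of -0.56 to 3.61 included 0. The stress-induced gene TotC was highest on diapause 3 (12.85), against 11.07 to 11.93 on the other diapause arrays and 11.19 to 11.78 on the non-diapause arrays.

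**Figure D5:**
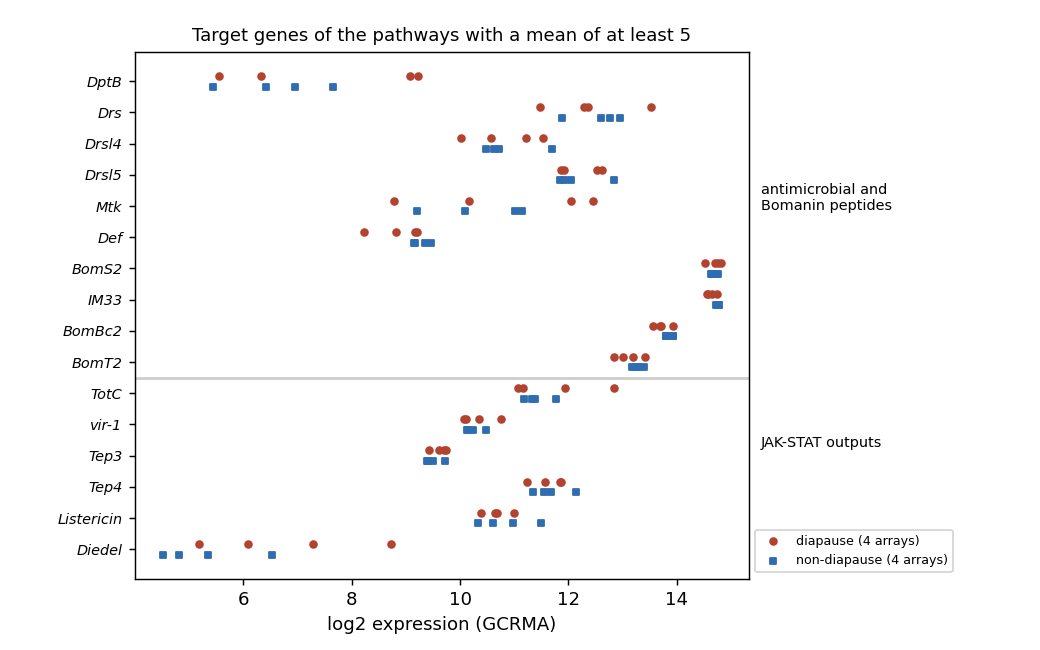
Log2 expression (horizontal axis) of the 16 pathway target genes with a mean of at least 5, with diapause arrays as red circles above non-diapause arrays as blue squares. The groups overlap for all 16, and DptB, Mtk and Diedel spread over several log2 units within a group.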

How the data were processed

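RNA from female heads (6 µg per sample) was hybridised to Affymetrix Drosophila Genome 2.0 arrays, 4 per group. The deposited values were log2 expression values that the authors had made with GCRMA, as the submitters' processing notes name it, with a version not given in the sources used here. The table held 18952 probe sets. The 183 control probe sets were left out and 18769 were tested. The platform annotation gave 13647 probe sets 1 symbol, 402 several and 4720 none. For a gene with several probe sets the one with the highest mean was used.

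Groups were compared with lmFit and eBayes (limma 3.58.1, R 4.3.3, 2-sided, Benjamini-Hochberg adjustment over all tested probe sets), without the replicate number. Single genes also had an exact permutation test, and the fit was checked on simulated data. Array values were given for genes at unadjusted p under 0.05, with a difference of at least 0.5, at the extremes of brightness, and for PGRP-LB, cact, Rel, pirk, spz and Stat92E; GNBP3, SPE and psh were added after their values were seen. Other lists were given by counts, medians and the smallest p-values; DptB, Mtk, Drs and TotC were added after their values were seen. The genes and lists were chosen with earlier results of these data known. Alternatives were a replicate block, a brightness filter, limma-trend, another quantile normalization, centring, array weights, the mean over probe sets, group medians and leaving out arrays.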

Additional observations from a re-analysis of the deposited data

Results flagged for a closer look

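In 7 of 58 groups of 4 arrays, 1 array lay far from the other 3 by Dixon's criterion, where chance gives about 1 in 20, or 2.9. In PGRP-LB, non-diapause 2 was at 7.46 and the other non-diapause arrays at 6.84 to 6.85. In PGRP-SC2, diapause 3 was at 8.73 and the other diapause arrays at 8.48 to 8.51. In pirk, diapause 3 was at 8.49 and the other diapause arrays at 6.93 to 7.03. In dome, diapause 3 was at 8.03 and the others of its group at 8.12 to 8.14. In pll, the Toll pathway kinase, diapause 2 was at 5.57 (others 6.07 to 6.11) and non-diapause 3 at 5.39 (others 6.03 to 6.15). In dl, non-diapause 3 was at 8.66 and the other non-diapause arrays at 8.78 to 8.79. Of the 7 arrays so marked, 3 were diapause 3 and 2 were non-diapause 3.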

How the results depend on the processing

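The number of arrays limits what could be detected. At adjusted p under 0.05 the count of members was 0 in all 16 alternatives. At unadjusted p under 0.05 (2 members of 31 as reported) it was 1 with the replicate block, 0 with limma-trend, 4 with another quantile normalization, 4 with centring, 1 without both diapause 2 and non-diapause 3, and 1 to 3 when arrays were left out in turn. At unadjusted p under 0.01 (1 member) it was 0 with the brightness filter, limma-trend, quantile normalization, centring, the mean over probe sets or without both arrays, and 0 to 2 when arrays were left out in turn. The cause was not tested. The median difference of -0.02 was -0.05 to 0.01 without each array and -0.08 to -0.00 otherwise, the lowest with centring, under which the median over all tested probe sets was -0.06. Direction turned for cact with centring (-0.023), for pirk without diapause 3 (-0.052, the range without each array reaching 0.47), and for spz without diapause 2 (0.080), diapause 4, non-diapause 2 or both diapause 2 and non-diapause 3 (0.013), the range without each array being -0.16 to 0.080. Of the 12 members recomputed this way, the other 9 kept theirs. Arrays of the same replicate number did not deviate together (r of -0.31, -0.62, -0.35 and 0.06). Between arrays of unlike number r was -0.44 to 0.42. With deviations from means of only 4 arrays, these values cannot tell whether equal numbers mark a shared culture, and the labels do not say. With the replicate block, dl had unadjusted p = 0.0520 and PGRP-SB1 0.00711 (limma). Among named members the smallest adjusted p over the alternatives was 0.340.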
